A study of Mus musculus with 6 samples.

Results

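The uroplakin genes Upk1a, Upk1b, Upk2, Upk3a and Upk3b were examined in RNA sequencing libraries of mouse prostate in experimental autoimmune prostatitis, an immune-mediated inflammation of the gland. They were taken by symbol from the deposited count table, where all 5 were present among 18697 genes. Every mouse carried the disease model. The VUF11207 group (3 libraries) had intraperitoneal injections of VUF11207, a small-molecule agonist of the chemokine receptor CXCR7, at 5 mg per kg per day for 14 days, and the vehicle group (3 libraries) had an equal amount of DMSO over the same time. The sources used here give neither strain nor age, and do not tie a library to a mouse. The p-values therefore measure the spread of these samples, which may be technical. Below, libraries of the vehicle group are called control replicates and those of the VUF11207 group treated replicates, and the vehicle library whose column name gives its group but matches no single sample is the unnumbered control. The 5 genes are commonly read as marks of bladder and urethra lining. They did not move as a set in these libraries: Upk1a was among the abundant genes, Upk3a was at 0 to 6 counts, and Upk1a, Upk1b and Upk2 were each highest in a different library. Of 26 other genes of urothelial differentiation, 21 reached 1 CPM in at least 1 library and 5 did not.

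Uroplakins are membrane proteins of the urothelium, the stretchable epithelium of the urinary tract. They assemble into rigid plaques that cover the apical face of its surface layer, the umbrella cells, and form part of the barrier against urine. UPK1A and UPK1B are tetraspanins, proteins that cross the membrane repeatedly, and each pairs with a protein that crosses it a single time. UPK1A pairs with UPK2, and UPK1B pairs with UPK3A or UPK3B. Outside the urinary tract, Upk1b and Upk3b are known in mesothelium, the layer that lines body cavities.

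The libraries held 20308018 to 33368058 counts. They differed widely in tissue content: the seminal vesicle genes fixed as a list took 0.708% of counts in the unnumbered control and 66.0% in control replicate 2, with 3.12% to 28.4% in the other 4 libraries. Levels are given as CPM, counts scaled to the library size after TMM, a library factor that discounts a few dominant genes. Control replicate 2 had a factor of 0.425 against 1.01 to 1.33 elsewhere, so its CPM values stand higher relative to its total counts than those of the other libraries. In bulk tissue, fewer cells of a type and less RNA per cell cannot be told apart.

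Upk1a, the tetraspanin partner of UPK2, was the most abundant member over all libraries. It stood at 9.95 CPM in the unnumbered control, 125 in control replicate 2 and 221 in control replicate 3, and at 161, 96.4 and 412 CPM in treated replicates 1, 2 and 3. The unnumbered control was far below the other 5, the highest library had 41.4 times the lowest, and the groups overlapped. These CPM rest on 269 to 12188 counts per library. Per kb of exon, the scale on which genes can be compared with each other, the mean Upk1a level was 120 CPM per kb, at percentile 98.2 of the 16851 genes with counts and a length. Upk1a (ENSMUSG00000006313.5) lies on chromosome 7 from 30603092 to 30612847 on the minus strand in mm10, and no other annotated gene overlaps it.

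Upk2, which encodes the single-pass partner of UPK1A, was much lower and had another order of libraries. Its level was 0.666 CPM in the unnumbered control, 23.0 in control replicate 2 and 2.71 in control replicate 3, against 7.78, 0.671 and 3.69 CPM in treated replicates 1, 2 and 3. Control replicate 2 and treated replicate 1 were highest, and the unnumbered control and treated replicate 2 lay at the bottom with 18 and 20 counts. Scaled by library totals, control replicate 2 was still the highest at 9.77 CPM, and treated replicate 1 followed at 7.85. The mean level per kb was 5.92, at percentile 73.3. Upk2 (ENSMUSG00000041523.3) lies on chromosome 9 from 44452715 to 44454976 on the minus strand, overlapped by no other gene.

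Upk1b, the other tetraspanin, was present at moderate levels in every library. It was at 44.6 CPM in the unnumbered control, 18.7 in control replicate 2 and 11.8 in control replicate 3, and at 8.93, 30.9 and 13.7 CPM in treated replicates 1, 2 and 3. The unnumbered control, lowest of all for Upk1a, was highest for Upk1b, and treated replicate 2 came next. Between its lowest and highest library Upk1b varied 4.996-fold, the narrowest range of the 3 members that passed the low count filter. Upk1b (ENSMUSG00000049436.5) lies on chromosome 16 from 38773184 to 38800328 on the minus strand, with no overlapping gene.

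Upk3a, the main partner of UPK1B in bladder plaques, was close to absent. It had 4, 0 and 2 counts in the unnumbered control and in control replicates 2 and 3, and 6, 1 and 1 counts in treated replicates 1, 2 and 3. The highest of these, 6 counts, was 0.203 CPM. The 0 in control replicate 2 allows a level of up to 0.211 CPM (3 counts), for counting error. The 14 counts of Upk3a in all 6 libraries compare with 28682 of Upk1a, and its mean level per kb was 0.0736, at percentile 16.3. Upk3a (ENSMUSG00000022435.6) lies on chromosome 15 from 85017141 to 85022547 on the plus strand, with no overlapping gene.

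Upk3b, the alternative partner of UPK1B, was detected mainly in the libraries with most Upk1b. It had 72 counts (2.66 CPM) in the unnumbered control and 22 (0.738 CPM) in treated replicate 2, but 0 and 1 in control replicates 2 and 3 and 3 and 4 in treated replicates 1 and 3. Upk3b was thus well above 3 counts in 1 library of each group. Upk3b (ENSMUSG00000042985.7) lies on chromosome 5 from 136038496 to 136046487 on the plus strand, with no overlapping gene. The related gene Upk3bl had 1 count in control replicate 3, 1 in treated replicate 3 and 0 in the other 4 libraries.

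**Figure D1:**
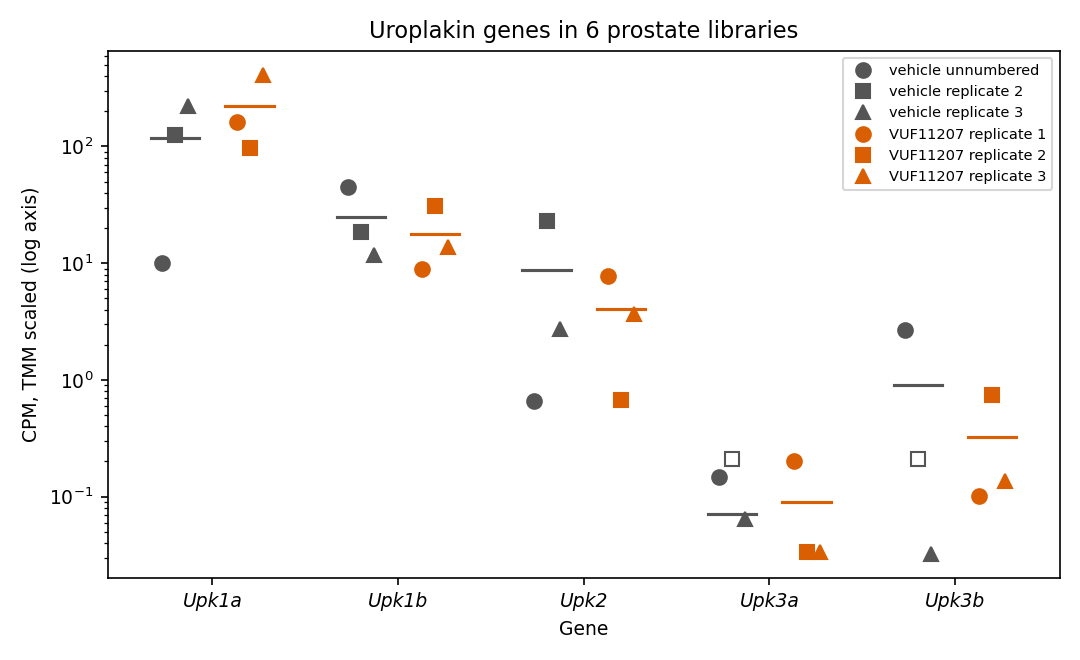
CPM (TMM scaled, log axis) of each uroplakin gene in the 3 vehicle libraries (grey) and the 3 VUF11207 libraries (orange), with lines at the group means; open squares mark 0 counts and stand at the level of 3 counts. Upk1a reaches 412 CPM while Upk3a stays at or below 0.203, and the groups overlap for all 5 genes.

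By mean level per kb of exon the order of the members was Upk1a (120), Upk1b (10.3), Upk2 (5.92), Upk3b (0.173) and Upk3a (0.0736). Upk1b and Upk2 did not keep their order across libraries. Upk1b was above Upk2 in the unnumbered control (21.3 against 0.615 CPM per kb) and below it in control replicate 2 (8.94 against 21.2). Upk3a and Upk3b were at so few counts in 4 libraries that their order there cannot be read. Upk1a was above every other member in 5 libraries, but in the unnumbered control it stood at 7.01 CPM per kb, below Upk1b.

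The promoters of the most and least abundant members, Upk1a and Upk3a, are shown with that of Upk3b, to let the stretches before their start sites be compared. RefSeq (build GRCm38.p6) gave a window for these 3 of 5 members. Only bases before the RefSeq start and outside annotated exons are printed, 5′ to 3′ on the gene's strand, and capitals mark the motifs searched. These were the TATA box TATAAA, the GC box GGGCGG, the Grainyhead type AACCNGTT, the GATA type AGATAA, the forkhead type TGTTTAC, the AP-1 type TGACTCA and the KLF type CACCC, on both strands.
Upk1a, chr7:30612848-30612984, minus strand, 137 bases: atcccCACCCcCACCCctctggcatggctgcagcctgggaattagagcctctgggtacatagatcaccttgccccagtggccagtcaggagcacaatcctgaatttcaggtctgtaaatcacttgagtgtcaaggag
Upk3a, chr15:85016891-85017140, plus strand, 250 bases: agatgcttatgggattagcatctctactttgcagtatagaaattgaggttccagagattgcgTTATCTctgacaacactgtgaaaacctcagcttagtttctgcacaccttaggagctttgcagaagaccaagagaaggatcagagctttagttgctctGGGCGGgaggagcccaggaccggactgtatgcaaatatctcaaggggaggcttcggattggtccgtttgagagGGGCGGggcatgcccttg
Upk3b, chr5:136038246-136038495, plus strand, 250 bases: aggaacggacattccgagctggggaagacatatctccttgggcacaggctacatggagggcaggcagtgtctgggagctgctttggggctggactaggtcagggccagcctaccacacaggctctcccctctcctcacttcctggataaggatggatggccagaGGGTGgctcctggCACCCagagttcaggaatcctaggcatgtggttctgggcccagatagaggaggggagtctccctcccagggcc

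In the 250 bases before the start, Upk1a and Upk3b each held CACCC at 2 places, a motif found in 52% of 32851 promoter windows of that length. Upk3a held GGGCGG at 2 places (32.7% of windows hold it) and AGATAA at 1 place, on the opposite strand (9.99% of windows). The TATA box (12.4% of windows), the Grainyhead type (1.79%), the forkhead type (3.17%) and the AP-1 type (4.46%) were in none of the 3. The matches are descriptions of these letters and not of bound sites.

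The make-up of the uroplakin counts changed from library to library. Upk1a held 17.2% of the counts of the 5 genes in the unnumbered control (Wilson 95% interval 15.4% to 19.1%) and 75.0% to 95.9% in the other 5. Upk1b held 76.8% in the unnumbered control (74.7% to 78.9%) and 24.0% in treated replicate 2 (22.7% to 25.4%), against 3.19% to 11.2% elsewhere. Upk2 held 13.8% in control replicate 2 (12.4% to 15.2%) and at most 4.37% elsewhere. So 3 libraries had a composition of their own: rich in Upk1b in the unnumbered control and, less so, treated replicate 2, and rich in Upk2 in control replicate 2. These intervals cover counting error and not the spread between specimens.

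**Figure D2:**
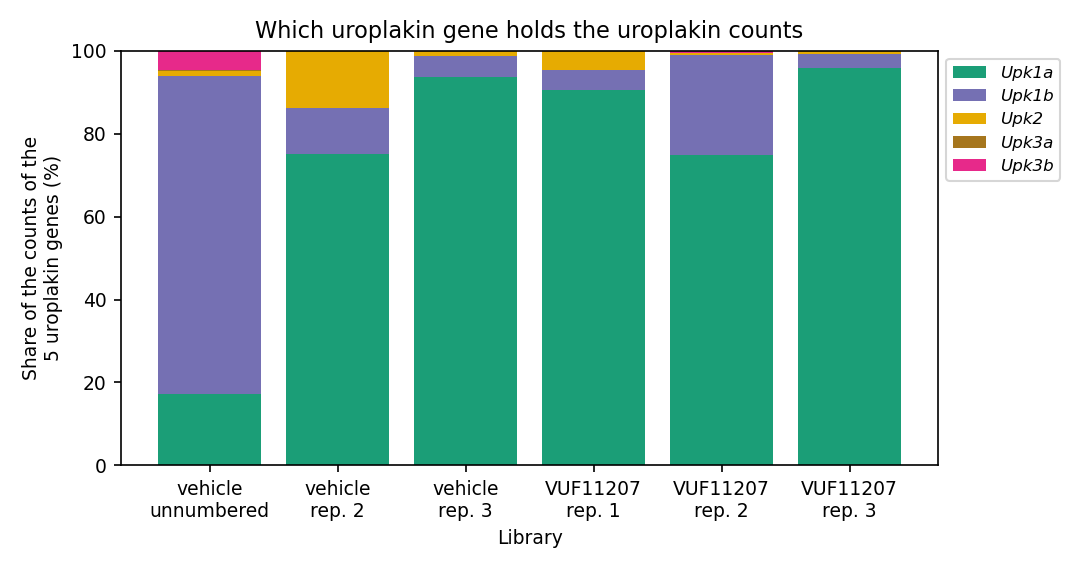
Share of each gene in the counts of the 5 uroplakin genes (percent, stacked) in each library. Upk1a holds 75.0% to 95.9% in 5 libraries and 17.2% in the unnumbered control, where Upk1b holds 76.8%.

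Genes whose products pair one to one did not keep a fixed ratio. Upk1a had 14.9, 5.44 and 81.2 counts for each count of Upk2 in the unnumbered control and in control replicates 2 and 3, and 20.7, 144 and 112 in treated replicates 1, 2 and 3. Divided by exon length this ratio ran from 4.15 to 109, so Upk1a exceeded Upk2 in all 6 libraries, but by very different factors. Upk1b had 16.7 counts for each count of Upk3b in the unnumbered control and 41.8 in treated replicate 2. Against Upk3a, the lowest ratio of Upk1b was 44.0, in treated replicate 1. The log2 ratio of Upk1a to Upk2 was 4.17 ± 1.96 with vehicle and 6.05 ± 1.47 with VUF11207 (SD, n = 3 each), and the difference of 1.88 had an exact permutation p of 0.2 (two-sided, 0.6 adjusted over 3 pairs). With 3 libraries against 3 this test cannot go below 0.1. The difference ran from 1.02 without control replicate 2 to 2.95 without control replicate 3. The log2 ratios of Upk1b to Upk3a and to Upk3b rest on a few counts and on the prior count added to them, and no group difference is read from them: it was -0.62 and -0.61 with a prior count of 2 and -0.87 and -1.28 with 0.5.

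Across the 6 libraries the 3 members that passed the low count filter did not rise and fall together. Upk1a and Upk1b ran in opposite directions, with a Pearson r of -0.81 (exact permutation p = 0.0264, adjusted 0.0792 over 3 pairs) and a Spearman rho of -0.77 (exact permutation p = 0.103, adjusted 0.308), both on log2 CPM. Without the unnumbered control and treated replicate 3, the 2 libraries farthest from the median of Upk1a, r was -0.83, and with each group centred on its own mean it was -0.80. All these values use TMM scaling. Scaled by library totals, control replicate 2 was lowest of all for Upk1b, at 7.94 CPM. For Upk1a it was then at 53.2 CPM, below all but the unnumbered control, so this library did not go with the opposite directions. No correlation was computed on that scale. Upk1a and Upk2 had r = 0.51 (exact permutation p = 0.312, adjusted 0.312) and rho = 0.49 (exact permutation p = 0.356, adjusted 0.356), with r = 0.22 without the same 2 libraries. Upk1b and Upk2 had r = -0.65 (exact permutation p = 0.162, adjusted 0.244) and rho = -0.60 (exact permutation p = 0.242, adjusted 0.356), and r turned to 0.51 without the unnumbered control and treated replicate 2. No pair passed after adjustment. Among 11774 genes ranked by their r with Upk1a, its partner Upk2 came at rank 3359.

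Other genes of the urothelium were next examined. Of 26 genes of urothelial differentiation, the 21 that passed the low count filter were, as a mean, highest in the 3 libraries with most Upk1a. Their mean level (log2 CPM relative to the average of the 6 libraries) was 0.61 in control replicate 3. It was 0.69 in treated replicate 1 and 0.32 in treated replicate 3, against -0.19, -0.59 and -0.84 in the unnumbered control, control replicate 2 and treated replicate 2. Krt7, a keratin of urothelium and other lining epithelia, was at 27.0, 23.4 and 28.2 CPM in the former and 5.62, 12.1 and 7.35 CPM in the latter. Gsdmc2, a gasdermin, was at 15.2, 6.15 and 10.04 CPM against 2.78, 0.423 and 0.537. Some members of the list ran the other way. Cldn8 was at 56.8, 68.0 and 64.0 CPM in the former against 148, 122 and 109 in the latter. Tmprss2 was highest in the unnumbered control and treated replicate 2, at 176 and 125 CPM. The summed CPM of the list did not split the libraries in this way, at 911 in control replicate 2 and 894 in control replicate 3. The split was not particular to this list, since basal epithelium genes had it too. Their mean level was 0.23, 0.50 and 0.44 in control replicate 3 and treated replicates 1 and 3. It was -0.44, -0.28 and -0.44 in the unnumbered control, control replicate 2 and treated replicate 2. In treated replicate 1 the urothelial mean includes Ctse at 165 CPM, against 1.34 to 6.59 elsewhere. Cldn4, a claudin of tight junctions, was well detected in every library, at 99.5 to 179 CPM. The part of urothelial tissue in the Upk1a values was not tested. Of the 26 genes, 5 stayed under 1 CPM in every library: Krt20, Snx31, Krt13, Upk3bl and Ivl. Krt20, the keratin of umbrella cells, had 0, 1 and 0 counts in the unnumbered control and control replicates 2 and 3 and 0, 1 and 2 counts in treated replicates 1, 2 and 3. Snx31, a sorting nexin that binds uroplakins, had 0, 4 and 12 counts against 24, 0 and 2, with its highest level of 0.811 CPM in treated replicate 1. Snx31 and Upk3a both had most counts in treated replicate 1, at 24 and 6, a library in which Upk1a was neither highest nor lowest. Upk3a came next in the unnumbered control, at 4 counts, where Snx31 had 0. Counts this low do not rank the libraries for Upk3a. Among 18 urothelial transcription factors Grhl3 alone stayed under 1 CPM, at 0 counts in 4 libraries and 5 and 7 counts in control replicate 3 and treated replicate 3. Pparg, a nuclear receptor that drives urothelial differentiation, lay between 0.564 and 1.70 CPM. In contrast, Gata3, a factor of the urothelium and of other epithelia, lay between 94.2 and 458 CPM, and Krt19, a keratin of many simple epithelia, between 197 and 479 CPM. These 5 differentiation genes, Krt7, Gsdmc2, Cldn8, Grhl3 and Pparg are singled out after their values were seen. No bladder or urethra library was analysed here, so the level that a given amount of such tissue would give is unknown.

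**Figure D3:**
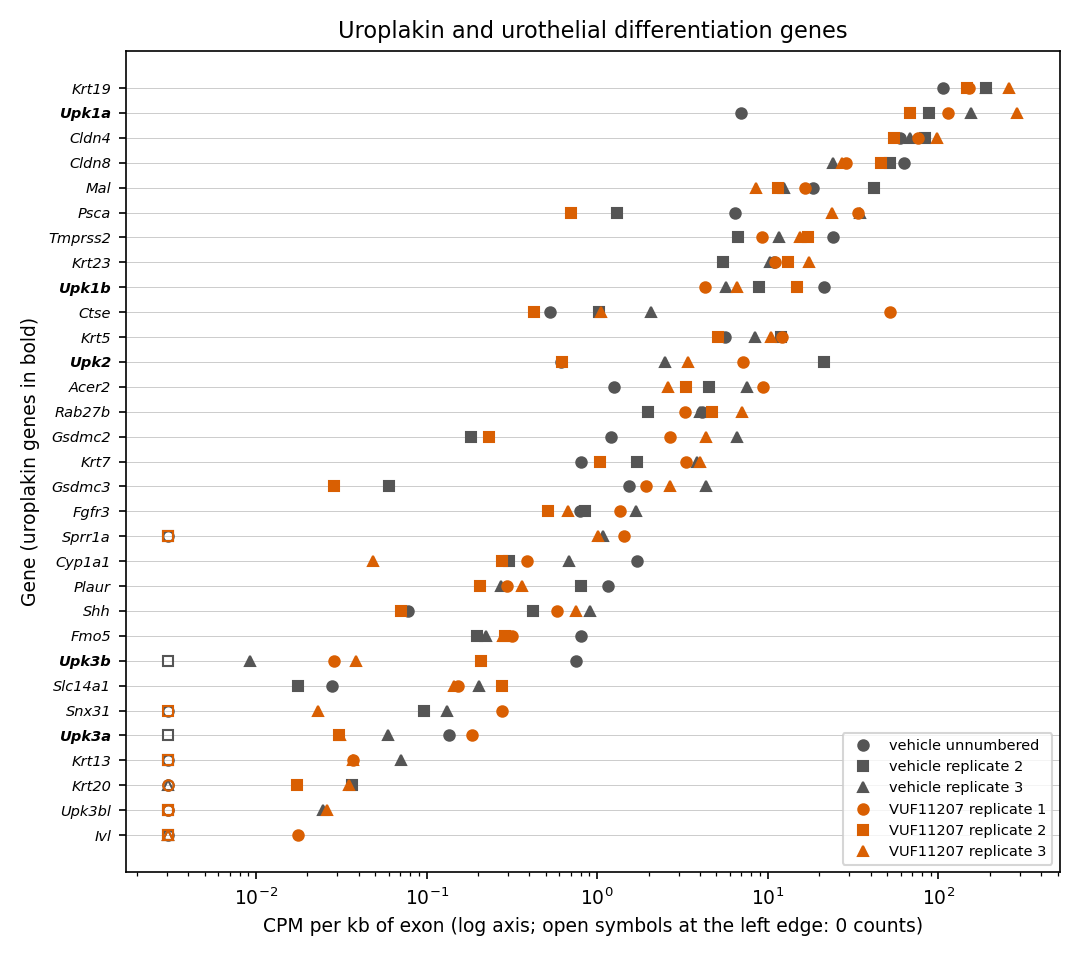
CPM per kb of exon (log axis) of the 5 uroplakin genes (bold) and the 26 genes of the urothelial differentiation list in each library, ordered by mean; open symbols at the left edge mark 0 counts. Upk1a stands near the top beside Krt19, whereas Upk3a lies at the bottom beside Snx31, Krt13 and Krt20.

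Genes of other tissues moved with 3 members. Upk2 was high where seminal vesicle genes were high, the list standing at 5.67 in control replicate 2 and 2.92 in treated replicate 1 and between -3.63 and -0.74 in the other 4, on the same scale. Svs4, a seminal vesicle secretory protein, was at 530, 359057 and 2529 CPM in the unnumbered control and control replicates 2 and 3 and at 43615, 504 and 5996 CPM in treated replicates 1, 2 and 3. The 4 highest libraries of Svs4 came in the same order as for Upk2, and the unnumbered control and treated replicate 2 were lowest for both. Upk1b was highest where Tgm4, a transglutaminase of the prostatic secretion, was highest: Tgm4 was at 16902 CPM in the unnumbered control and 8518 in treated replicate 2, against 624 to 1646 in the other 4. The prostate secretory list as a whole did not follow Tgm4, at -0.93 and 0.75 in those 2 libraries and 1.22 in treated replicate 3. Smooth muscle genes were also highest in those 2 libraries, with mean levels of 0.74 and 1.21 over 14 genes against at most 0.37 elsewhere. Svs4 and Tgm4 were set beside these members after their values were seen, and the part of tissue content in the uroplakin values was not tested.

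Upk3b was seen in the same 2 libraries as Wt1, a transcription factor of mesothelium and of some stromal cells, which was also chosen after its values were seen. Wt1 was at 6.99 CPM in the unnumbered control and 5.23 in treated replicate 2, against 0.582 to 1.69 in the other 4. Rspo1, a secreted activator of Wnt signalling on the same list, had the same 2 libraries highest, at 1.998 and 2.65 CPM against 0.211 to 0.646. It was also chosen after its values were seen. Not all members of the list had this order. Podxl was highest in control replicate 2 and treated replicate 1, at 82.2 and 26.1 CPM. It was at 12.3 CPM in the unnumbered control and 10.3 in treated replicate 2. Calb2, picked out likewise, had 0 counts in the unnumbered control and was highest in treated replicate 1, at 1.12 CPM. Some further mesothelial genes, also picked out after their values were seen, were near 0 throughout. Msln, which encodes mesothelin, reached 0.592 CPM at most, Lrrn4 had 1 count in the unnumbered control and 0 elsewhere, and Bnc1 had 1 count in each of treated replicates 1 and 2 and 0 elsewhere. Muc16 had 12 counts in the unnumbered control, 1 in treated replicate 2 and 0 elsewhere. Of the 12 genes on the mesothelium list 5 stayed under 1 CPM, and the summed level of the list ran from 232 to 456 CPM with vehicle and from 307 to 502 CPM with VUF11207, most of it Krt19. As a mean level over its genes that passed the low count filter, the list stood at 0.32 in treated replicate 2. It stood at 0.04 in the unnumbered control, below 0.11 in treated replicate 1 and 0.09 in control replicate 2. The part of mesothelium in the Upk3b values was not tested.

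Skeletal muscle, which forms the sphincter around the urethra and lies around the gland, was set beside the members in the same way. Its list had mean levels of 4.10 and 4.18 in control replicate 3 and treated replicate 1 and of 0.46 or less in the other 4. Upk1a was at 221 and 161 CPM in the 2 libraries rich in skeletal muscle genes, below its 412 in treated replicate 3. Upk1b was lowest in them with TMM scaling, at 11.8 and 8.93 CPM. Scaled by library totals, Upk1b was at 14.5 and 9.01 CPM in them. It was then lowest in control replicate 2, at 7.94 CPM, where the skeletal muscle list stood at -2.18.

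**Figure D4:**
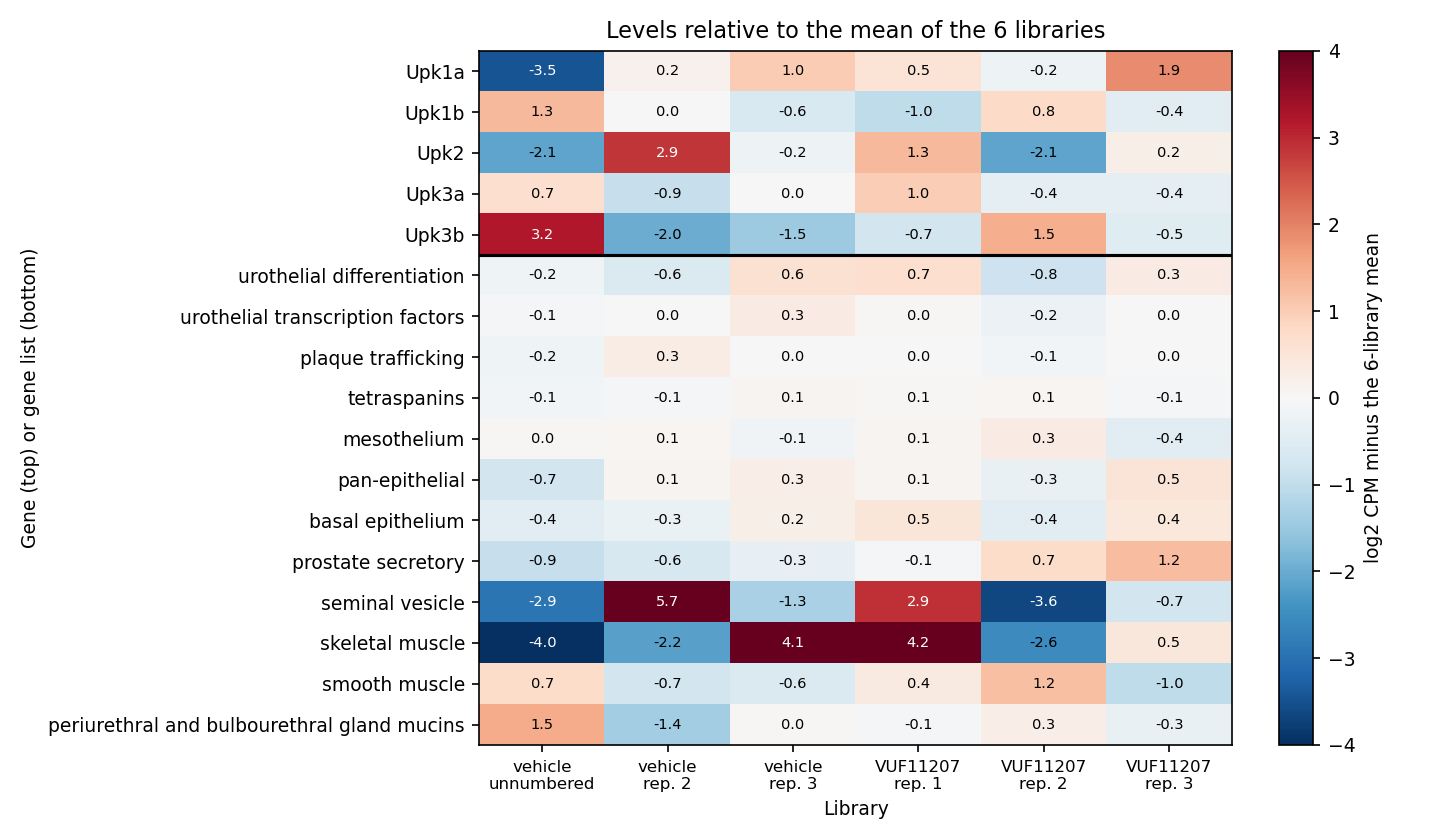
Levels relative to the mean of the 6 libraries (log2 CPM with a prior count of 2) for each uroplakin gene (top) and for 12 gene lists (bottom). Each list value is a mean over its genes that passed the low count filter. Upk2 is high where the seminal vesicle list is high, in control replicate 2 and treated replicate 1, and Upk1b and Upk3b are high in the unnumbered control and treated replicate 2, where smooth muscle genes are highest.

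The genes most like each member were taken by Pearson r of log2 CPM over the 6 libraries, among 11558 genes, as a description. With 6 points many genes reach a high r: 699 were above 0.9 for Upk1a, 585 for Upk1b, 493 for Upk2 and 643 for Upk3b. For Upk1a, Gstt3, a glutathione transferase (r = 0.9996), and Lpar5, a receptor for lysophosphatidic acid (0.997), were among the nearest. Gstt3 ran from 28.4 CPM in the unnumbered control to 329 in treated replicate 3, a narrower range than that of Upk1a. For Upk1b they were Cluap1 (0.996), Ddx50 (0.995) and Pin4 (0.994), for Upk2 Acp1 (0.998), Atp5g1 (0.997) and Hdlbp (0.996), and for Upk3b Dcaf15 (0.997), Csrp2 (0.997) and Hnrnpdl (0.994). The Upk3b values rest mainly on 72 counts in the unnumbered control and 22 in treated replicate 2. Elsewhere it had 0 to 4 counts, where the prior count weighs heavily. None of the genes named here was among the nearest 3 of more than 1 member. For the mean of all 5 members the nearest gene was Pprc1 (r = 0.98), and 5 genes were above 0.9. That mean moved by little, from -0.26 in control replicate 3 to 0.21 in treated replicate 1, while the members went different ways.

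Between VUF11207 and vehicle, no uroplakin gene passed the test, and the 3 members with enough counts leaned different ways. Upk1a averaged 223 CPM ± 167 with VUF11207 and 119 ± 105 with vehicle (SD, n = 3 each), which gave a log2 fold change of 0.91 ± 1.02 (SE; 95% interval -1.53 to 3.35; adjusted p = 0.9999, edgeR's quasi-likelihood test over all genes). Upk1b averaged 17.8 CPM ± 11.5 against 25.0 ± 17.3, a log2 fold change of -0.49 ± 0.62 (95% interval -1.97 to 0.99, same adjusted p in edgeR). Upk2 averaged 4.04 CPM ± 3.57 against 8.78 ± 12.3, a log2 fold change of -1.11 ± 1.33 (95% interval -4.29 to 2.07, same adjusted p in edgeR). Scaled by library totals in place of TMM, which gave control replicate 2 its factor of 0.425, Upk2 was at -0.12. All 3 intervals span 0 and are wide, so these libraries do not show that the genes were alike in the groups.

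Upk3a and Upk3b fell under the low count filter and were taken from an edgeR fit without it. Their log2 fold changes were 0.26 ± 1.41 and -1.44 ± 1.75 (SE), with 95% intervals from -3.02 to 3.54 and from -5.52 to 2.63. Counting all 5 members, 0 passed an adjusted p of 0.05 in edgeR, where 0% of the 13753 genes tested passed (and 0% of 17478 without the filter). None of the 5 had an unadjusted p under 0.05, which 1.43% of the genes tested had (196 genes), and none had groups that did not overlap, which 5.57% had. DESeq2 called 4 genes and limma voom 0, none of them uroplakins.

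Single libraries set the sign for 4 members. Without control replicate 2, the value of Upk2 turned from -1.11 to 1.26 and that of Upk3a to -0.21. Without the unnumbered control, Upk1b turned to 0.23 and Upk3b to 3.71, and without treated replicate 1, Upk3a was at -1.01. Upk1a stayed positive throughout, from 0.12 without treated replicate 3 and 0.37 without the unnumbered control to 1.73 without control replicate 3. The summed level of the 5 genes was 58.0, 167 and 235 CPM with vehicle and 178, 129 and 430 CPM with VUF11207, most of it Upk1a outside the unnumbered control. Its log2 difference was 0.70 (exact permutation p = 0.5, two-sided, higher than the vehicle mean in 2 of 3 libraries). It was 0.12 without the unnumbered control, 0.20 without treated replicate 3, 1.07 without treated replicate 2, 1.13 without control replicate 3 and 1.05 with scaling by library totals.

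**Figure D5:**
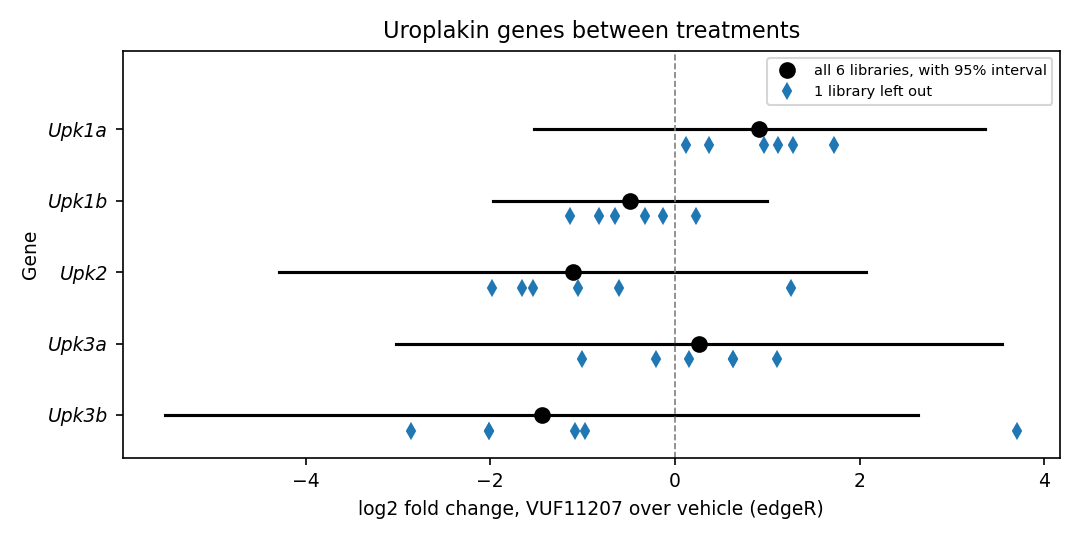
log2 fold change of each uroplakin gene, VUF11207 over vehicle (edgeR; Upk3a and Upk3b without the low count filter), with its 95% interval (black) and with each library left out in turn (blue). Every interval spans 0, and with 1 library left out the values of Upk1b, Upk2, Upk3a and Upk3b fall on either side of it.

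The gene lists gave no call with treatment either. Urothelial differentiation genes had a log2 fold change above 0 in 11 of 21 tested members, with a median of 0.09, transcription factors 7 of 17 and -0.03, and genes of plaque trafficking 5 of 13 and -0.04. Over all genes tested the median was -0.04 and 44.7% were positive. The tetraspanins, the protein family of UPK1A and UPK1B, had 15 of 26 positive and a median of 0.08. In these 4 lists 0 genes passed and 0 had an unadjusted edgeR p under 0.05. Mal, a lipid raft protein that acts in delivery of uroplakins to the membrane, was at 51.2, 117 and 34.4 CPM with vehicle and 46.0, 31.7 and 23.5 CPM with VUF11207, a log2 fold change of -0.9995 ± 0.49 (SE; edgeR adjusted p = 0.9999), and -0.33 without control replicate 2 and -0.51 with scaling by library totals. Rab27b, a small GTPase of uroplakin vesicles, was at 43.9, 21.1 and 42.7 CPM against 34.7, 50.4 and 75.3, a log2 fold change of 0.57 ± 0.39, and 0.25 without treated replicate 3 and 0.32 without control replicate 2. Tspan15, another tetraspanin, was at 40.5, 82.0 and 44.8 CPM against 44.3, 22.9 and 14.3, a log2 fold change of -1.04 ± 0.47, and Tbx2, a T-box factor, was at -1.06 ± 0.54. With 1 library left out, Tspan15 ran from -1.56 without treated replicate 1 to -0.64 without control replicate 2, and Tbx2 from -1.66 without treated replicate 1 to -0.69 without treated replicate 3. Tbx2 was also at -0.73 without control replicate 2, and with scaling by library totals Tspan15 was at -0.68. For these 4 genes the groups overlapped. In each of the 4 lists 1 gene had groups that did not overlap, of 21, 17, 13 and 26 tested, against 5.57% of all genes tested. These were Krt23, higher with VUF11207, and Tbx3, Vipas39 and Tspan1, lower with VUF11207. Krt23 and Vipas39 are named after their values were seen.

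The lists for other cell types in the specimens had no gene past the threshold in edgeR. Over all genes tested, 44.7% had a log2 fold change above 0, 1.43% an unadjusted edgeR p under 0.05 and 5.57% groups that did not overlap. Prostate secretory genes had a log2 fold change above 0 in 10 of 14 and a median of 1.10. Of these 14 genes, 5 had an unadjusted edgeR p under 0.05 and 6 had groups that did not overlap. Seminal vesicle genes had 0 of 10 above 0 and a median of -2.82. Smooth muscle genes had 14 of 14 above 0 (median 0.41), skeletal muscle genes 10 of 16 (0.09), basal epithelium 8 of 10 (0.26) and pan-epithelial genes 12 of 18 (0.10). Mesothelium had 3 of 7 above 0 (-0.21) and the mucins of the periurethral and bulbourethral glands 1 of 4 (-0.43). In the 7 lists other than the prostate secretory one, 0 genes had an unadjusted p under 0.05. The seminal vesicle values turn on control replicate 2: the list stood at -2.93, 5.67 and -1.29 with vehicle and 2.92, -3.63 and -0.74 with VUF11207, so that the other 2 controls lay within the range of the treated libraries. The smooth muscle list stood at 0.74, -0.73 and -0.57 with vehicle and 0.37, 1.21 and -1.01 with VUF11207. Its groups thus overlapped, and its lowest library was treated replicate 3. The part of these lists in the uroplakin values was not tested.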

How the data were processed

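Total RNA of prostate was extracted with TRIzol and made into libraries with a VAHTS V6 kit, per the labels' protocols. The submitters' processing notes name HTSeq, HISAT2, fastp and the build mm10. For versions, annotation, strand setting and reads that match several genes, these are not given in any source used. The authors deposited raw counts of reads for each gene symbol, with no scaling, and 5 of 5 single-library files were identical to the table. Groups came from the sample titles. The column without a file of its own entered the vehicle group unnumbered, and no batch is labelled.

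Counts were TMM scaled, filtered with filterByExpr (13753 genes left, 3 of 5 uroplakins) and compared in edgeR 4.0.16 by the quasi-likelihood test with robust dispersions, two-sided, Benjamini-Hochberg adjusted over all genes, threshold 0.05, in R 4.3.3. The test was tried on simulated data. Single values used exact permutation of libraries. Log2 levels have a prior count of 2. Exon lengths and positions are from GENCODE M21 (mm10). The 12 gene lists and the members were chosen with earlier results of these data known. Named were the 5 members, from each list the 3 genes with the smallest p and the 3 most abundant, and the nearest genes by r, leaving out Gm, Rik and LOC names. Some genes that this rule names are not reported here. Any other gene is marked in the text as picked with its values in view. Alternatives were DESeq2 1.42.0, limma 3.58.1 voom with and without sample weights, other scalings and filters, a replicate block, a prior count of 0.5 and leaving out each library. Added after seeing the data were leaving out control replicate 2 and treated replicate 1 together and a block on the column numbers. A library with 0 counts allows 3 counts.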

Additional observations from a re-analysis of the deposited data

How the results depend on the processing

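No uroplakin gene passed the threshold in any of the 16 or 17 alternatives run for it, and the smallest adjusted p was 0.895. The number of genes past the threshold was 0, but 4 with DESeq2 and 3 with scaling by library totals, which shifted the median over all genes from -0.04 to 0.14 (log2). The direction held for Upk1a in all 17 alternatives. With 1 library left out, Upk1b ran from -1.14 to 0.23, Upk2 from -1.98 to 1.26, Upk3a from -1.01 to 1.11 and Upk3b from -2.85 to 3.71. Over few counts, the log2 ratio of Upk1b to Upk3a ran from -1.34 to 0.24 and that of Upk1b to Upk3b from -1.73 to 0.23. With limma voom Upk2 was at 0.0102 and Upk3b at 0.51, and with sample weights Upk3b was at 1.51. Without the libraries richest in seminal vesicle genes Upk2 was at 0.38 and Upk3a at -1.49. The mean uroplakin level differed by 0.20, by 0.38 with a prior count of 0.5 and by 0.38 with scaling by library totals. The cause of these changes was not tested. The few counts of Upk3a and Upk3b limit any statement on them.

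With a replicate block on the numbered replicates 2 and 3, Upk1b was at 0.48, Upk3b at 3.56 and Ctse at -1.11. With a replicate block over all libraries by column number, Upk2 was at 0.0659 and Upk3b at 0.92. Both fits called 0 genes. The number was not taken as a pairing, because the labels give it only as a number. Matched by column number, the deviations of the libraries had correlations of -0.65, -0.34 and 0.0913. The unnumbered control and treated replicate 2, which differ in number, had 0.75. These correlations cannot decide whether samples were paired, as libraries also deviated together across numbers. Ctse was at 3.88, and at -0.70 without treated replicate 1, -0.81 without that library and control replicate 2, with up to 4.55 when other single libraries were left out.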

Other observations

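Ctse, which encodes the aspartic protease cathepsin E and is made by surface epithelia, was at 165 CPM in treated replicate 1 and between 1.34 and 6.59 CPM in the other 5 libraries. Its log2 fold change of 3.88 ± 1.79 (SE, edgeR adjusted p = 0.9999) rested on that library, and was -0.70 without it. Treated replicate 1 also had the most counts of Snx31 and Upk3a, which remained under 1 CPM. For Upk3a these were 6 counts, against 4 in the unnumbered control, too few to rank the libraries.

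Psca, a surface protein known in urothelium and prostate epithelium, was at 29.8, 28.9 and 20.4 CPM in control replicate 3 and treated replicates 1 and 3, and at 0.604 to 5.51 CPM in the others. Upk1a was also high in those 3 libraries, but at 125 and 96.4 CPM in control replicate 2 and treated replicate 2 it was well detected where Psca was at 1.13 and 0.604 CPM. Psca was chosen after its values were seen.

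Agr2, an endoplasmic reticulum protein of mucus-making epithelia on the list of periurethral and bulbourethral gland mucins, was highest in the unnumbered control and treated replicate 2, the libraries richest in Upk1b, at 1559 and 1068 CPM, against 199 to 841 CPM elsewhere. The secreted mucin Muc2 and the trefoil peptide Tff3 were at or near 0, at 0.0970 and 0.129 CPM at most, and were chosen after their values were seen.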
